A study of Homo sapiens with 4 samples.

Results

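Semaphorins are secreted or membrane-bound guidance proteins that steer migrating cells and growing axons, and plexins are the receptors that pass their signal to the cytoskeleton. Most class 3 semaphorins, the secreted vertebrate class, cannot bind plexins alone and use a neuropilin as the ligand-binding partner. Melanocytes descend from the neural crest, whose migration these cues guide. The set described here holds 10 genes: the semaphorins SEMA3A, SEMA3B, SEMA3C, SEMA4D and SEMA6A, the neuropilins NRP1 and NRP2, and the plexins PLXNA1, PLXNB2 and PLXNC1. They were chosen by name from the 14355 gene names in the deposited tables, and all 10 are listed there. SEMA3B was picked because its level was higher after CDH3-AS1 siRNA in both batches, so that difference is described below and not tested.

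The data are ribosome footprints, the RNA fragments that ribosomes protect from RNase I, from Hermes 4B, an immortalised human skin melanocyte line labelled wild type. Cells received either a control siRNA or an siRNA against CDH3-AS1, an RNA antisense to the P-cadherin gene CDH3, at 25 to 50 nM, and all 4 libraries were made with 100 µg/mL cycloheximide to hold ribosomes in place. Each siRNA had 2 libraries, replicate 1 in batch 1 and replicate 2 in batch 2. Whether each library had its own culture is not said in the labels, and the p-values rest on the spread of these 4 samples, which can be technical. All groups share 1 line and a medium with the phorbol ester TPA, endothelin-1, cholera toxin and stem cell factor.

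Control siRNA replicates 1 and 2 held 2034854 and 5994485 reads, and CDH3-AS1 siRNA replicates 1 and 2 held 6759850 and 2858835. Levels are given as CPM, a gene's coding-sequence reads per 1000000 coding-sequence reads of the library, and 3 reads, the floor of detection used here, came to 1.63 and 0.533 CPM for the controls, and to 0.473 and 1.15 CPM for the libraries with CDH3-AS1 siRNA. CDH3, the gene the study is about, had 293 and 322 CPM in the controls and 179 and 192 CPM after CDH3-AS1 siRNA; the level of CDH3-AS1 itself was not analysed here. All 7 melanocyte markers had reads in every library, with summed levels of 23085 and 39741 CPM in the controls and lower sums of 21447 and 31493 CPM after CDH3-AS1 siRNA. PMEL and TYRP1 made up most of each sum, and the markers did not move together. PMEL, MLANA, TYR and MITF were lower in both batches, and TYRP1 and DCT in batch 2 but not in batch 1. SOX10 was higher in both, at 2198 and 1052 CPM in the controls and 2207 and 1376 CPM after CDH3-AS1 siRNA. Control siRNA replicate 1 stands apart: 10 listed of 12 skeletal muscle markers summed to 3774 CPM there and to at most 6.93 CPM elsewhere, and 6 listed of 7 fibroblast markers to 496 CPM against at most 4.88 CPM. Values within batch 2 do not use that library. Summed markers of keratinocytes ran from 8.19 to 35.3 CPM, mostly KRT10, those of leukocytes from 650 to 1239 CPM, nearly all CD68, and those of Schwann cells from 848 to 2560 CPM, the last higher after CDH3-AS1 siRNA in both batches. The part of any of these cells in the values below was not tested.

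NRP2 had the highest mean footprint level per length of coding sequence among the 10 genes, and SEMA3A and SEMA4D had almost none. Levels between genes are compared as reads per 1000000 library reads and per kilobase of the longest coding sequence. Over the 4 libraries NRP2 stood at 104 ± 13.4 (SD, n = 4), PLXNB2 at 75.0 ± 17.9, SEMA6A at 68.5 ± 28.6 and PLXNC1 at 54.0 ± 12.8 on this scale. SEMA3C followed at 27.6 ± 5.57, PLXNA1 at 27.1 ± 2.32, SEMA3B at 25.2 ± 16.1 and NRP1 at 17.1 ± 7.97. Among the 10469 genes tested NRP2 lay at the 85.8th percentile and NRP1 at the 41.5th. The lowest NRP2 value, 91.9, was above the highest PLXNB2 value, 90.7, though SEMA6A reached 102 in CDH3-AS1 siRNA replicate 2, where NRP2 had 101, and PLXNC1 was above SEMA3C in every library with no overlap of their ranges. The ranges of neighbours from PLXNB2 to PLXNC1 overlapped, as did those from SEMA3C to NRP1. Within libraries, however, SEMA6A was above PLXNC1 in all 4, and SEMA3C and PLXNA1 were each above NRP1 in all 4. For PLXNA1 the gap was slight in CDH3-AS1 siRNA replicate 1 (28.8 against 28.7). The other neighbours in these runs changed places between libraries.

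**Figure D1:**
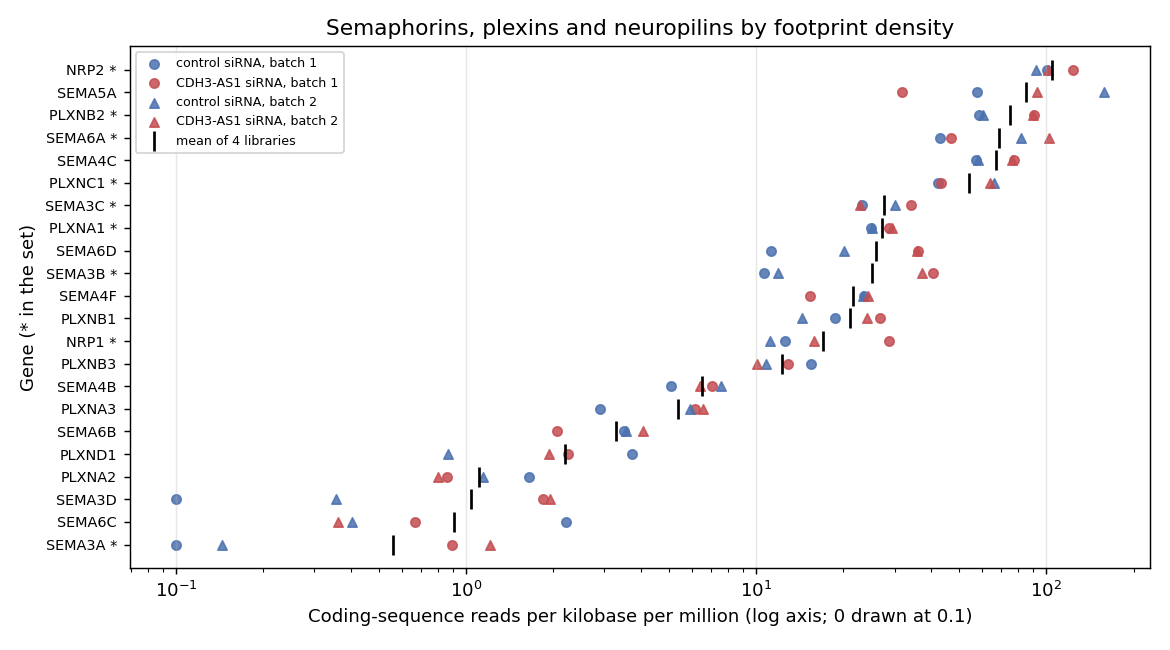
Coding-sequence reads per 1000000 library reads and per kilobase (log axis) of each semaphorin, plexin and neuropilin with a mean of at least 0.5, in the 4 libraries (blue control siRNA, red CDH3-AS1 siRNA, circles batch 1, triangles batch 2), with the mean as a black bar and the genes of the set marked with an asterisk; 0 is drawn at 0.1. NRP2 has the highest mean at 104, SEMA3B shows its red points to the right of its blue ones, and SEMA6A its triangles to the right of its circles.

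SEMA3B encodes a secreted class 3 semaphorin that signals through neuropilins and is known as a p53 target and candidate tumour suppressor. It lies on chromosome 3 at 50260226 to 50277546 (GRCh38.p14, the coordinates used throughout), and the reads counted are in its coding exons. Control siRNA replicates 1 and 2 had 26.6 and 28.6 CPM (49 and 161 reads), and CDH3-AS1 siRNA replicates 1 and 2 had 98.3 and 92.7 CPM (624 and 242 reads). Both CDH3-AS1 siRNA libraries were thus far above both controls, and replicates of a group were close to each other. The ratio was 3.70-fold in batch 1 and 3.24-fold in batch 2. The fitted log2 fold change was 1.81 (SE 0.32), and it was 1.79 without control siRNA replicate 1, the library with muscle transcripts. Per length, SEMA3B stood in the controls at 10.6 and 11.9, level with NRP1 at 12.6 and 11.2, and after CDH3-AS1 siRNA at 40.8 and 37.4.

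The tables split SEMA3B over 4 transcripts. ENST00000618865.4, which codes for 749 residues, took 91.8% and 75.2% of the coding reads in the controls and 84.6% and 84.7% after CDH3-AS1 siRNA. ENST00000621029.4, with a coding sequence of 642 bases, took 8.16% and 21.1% in the controls and 14.9% and 10.7% after CDH3-AS1 siRNA. The split thus differed as much between the controls as between the siRNAs. Footprints from exons that transcripts share cannot be told apart, so such shares describe the authors' assignment of reads.

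SEMA3C, another secreted class 3 semaphorin (chromosome 7 at 80742538 to 80922389), did not follow SEMA3B. It had 57.5 and 72.5 CPM in the controls and 82.1 and 56.3 CPM after CDH3-AS1 siRNA. The groups overlapped, with a ratio of 1.43-fold in batch 1 and 0.777-fold in batch 2. By edgeR's quasi-likelihood test with Benjamini-Hochberg adjustment over all genes its log2 fold change was 0.13 (SE 0.35, adjusted p = 1.00), and with the batch as a replicate block 0.11 (SE 0.29, adjusted p = 0.966).

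SEMA3A, the prototype repulsive class 3 semaphorin (chromosome 7 at 83955777 to 84492725), was near the floor of detection and did not pass the filter on low counts. It had 0 and 2 reads in the controls and 14 and 8 reads after CDH3-AS1 siRNA, or 0, 0.355, 2.21 and 3.07 CPM. In batch 1 the level was at least 1.35-fold higher than the control's floor of 3 reads. In batch 2 the ratio was 8.63 (95% interval 1.72 to 83.4, counting error only). SEMA4D, a membrane semaphorin best known from lymphocytes (chromosome 9 at 89360787 to 89498113), had 0 reads in both controls and 2 and 1 after CDH3-AS1 siRNA. All 4 counts are at or below the floor, so no ratio is given for it.

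SEMA6A is a transmembrane semaphorin that binds class A plexins (chromosome 5 at 116443555 to 116574823). It had 147 and 270 CPM in the controls and 154 and 347 CPM after CDH3-AS1 siRNA. The libraries sorted by batch, not by siRNA, and the ratio between siRNAs was 1.05-fold in batch 1 and 1.29-fold in batch 2. The log2 fold change of 0.31 (SE 0.51, adjusted p = 1.00) did not pass edgeR's test, nor did 0.26 with the replicate block (SE 0.25, adjusted p = 0.845).

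The receptors divide into those whose libraries separated by siRNA and those that did not. PLXNB2, a widely expressed class B plexin and receptor of class 4 semaphorins (chromosome 22 at 50274979 to 50307646), had 358 and 355 CPM in the controls and 533 and 546 CPM after CDH3-AS1 siRNA. The replicates of each siRNA differed by far less than the siRNAs did, and the ratio was 1.49-fold in batch 1 and 1.54-fold in batch 2. The log2 fold change was 0.64 (SE 0.31), and edgeR did not call it among all genes without the block (adjusted p = 1.00) or with it (0.64, SE 0.23, adjusted p = 0.176). Leaving out 1 library at a time kept it between 0.61 and 0.68.

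NRP1 binds class 3 semaphorins and VEGF (chromosome 10 at 33177493 to 33334667). It had 38.5 and 33.0 CPM in the controls and 84.6 and 47.9 CPM after CDH3-AS1 siRNA. Both CDH3-AS1 siRNA libraries were above both controls, though replicate 1 much more than replicate 2, with ratios of 2.20-fold in batch 1 and 1.45-fold in batch 2. Its log2 fold change of 0.93 (SE 0.39) had an adjusted p of 1.00 by edgeR, and 0.86 (SE 0.30) with the block had an adjusted p of 0.147. Without CDH3-AS1 siRNA replicate 1 the value was 0.48. Neuropilins also mark endothelium, and 4 listed of 7 endothelial markers summed to 18.5 and 17.8 CPM in the controls and 34.7 and 30.3 CPM after CDH3-AS1 siRNA. EGFL7 made up nearly all of this except in control siRNA replicate 1, where it had 6.51 CPM. With CDH3-AS1 siRNA, CDH5 was at 0.158 and 0 CPM and VWF at 0.315 and 0 CPM.

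By the authors' assignment, NRP1 coding reads went in largest part to a short form. ENST00000374875.5, which codes for 735 residues, took 49.3% and 52.2% of them in the controls and 56.8% and 52.8% after CDH3-AS1 siRNA. ENST00000265371.8, which codes for 923 residues, took 26.8% and 26.3% in the controls and 25.5% and 25.6% after CDH3-AS1 siRNA. These shares varied little over the libraries while the NRP1 total did.

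NRP2, the second neuropilin (chromosome 2 at 205682501 to 205798131), had 312 and 274 CPM in the controls and 367 and 311 CPM after CDH3-AS1 siRNA. The groups touched, with control siRNA replicate 1 just above CDH3-AS1 siRNA replicate 2; after TMM scaling, edgeR's correction for library composition, they separated, at 306 and 320 CPM in those libraries. The ratio was 1.18-fold in batch 1 and 1.13-fold in batch 2, and the log2 fold change of 0.25 (SE 0.32) had an adjusted p of 1.00 by edgeR and of 0.848 with the block. It was 0.15 without CDH3-AS1 siRNA replicate 1. PLXNA1, a class A plexin that serves class 3 and class 6 semaphorins (chromosome 3 at 126983115 to 127037389), had 157 and 152 CPM in the controls and 175 and 183 CPM after CDH3-AS1 siRNA. Its groups did not overlap but lay close, with ratios of 1.11-fold and 1.20-fold and a log2 fold change of 0.25 (SE 0.30, adjusted p = 1.00 by edgeR, 0.866 with the block).

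PLXNC1, the plexin that binds SEMA7A (chromosome 12 at 94148577 to 94307675), had 221 and 331 CPM in the controls and 218 and 330 CPM after CDH3-AS1 siRNA. Within each batch the siRNAs were nearly level, at 0.985-fold in batch 1 and 0.997-fold in batch 2. The log2 fold change was 0.03 (SE 0.39, adjusted p = 1.00 by edgeR) and turned to -0.02 with limma on log2(RPKM + 1). SEMA7A was not analysed here.

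**Figure D2:**
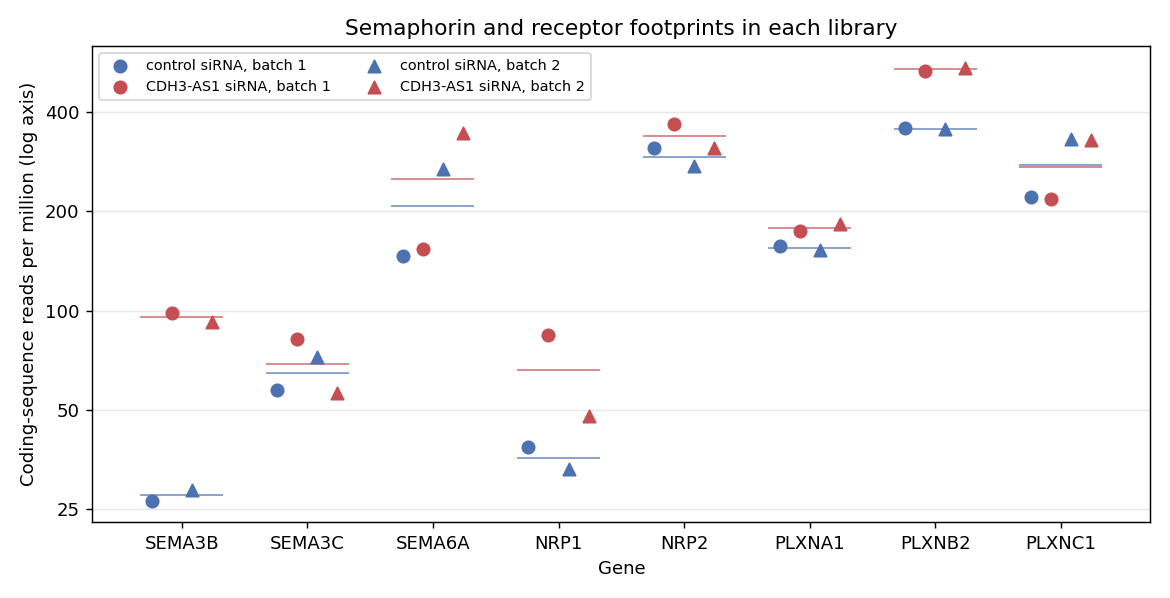
Level in CPM (log axis) of the 8 genes that passed the filter on low counts, in each library, with the mean of each siRNA's 2 libraries as a horizontal line (blue control siRNA, red CDH3-AS1 siRNA, circles batch 1, triangles batch 2). SEMA3B and PLXNB2 separate by colour, at 26.6 to 28.6 against 92.7 to 98.3 CPM and at 355 to 358 against 533 to 546 CPM, while PLXNC1 and SEMA6A separate by shape.

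Across the set, 8 of 10 genes passed the filter on low counts. All 10 were chosen with earlier results of these data known, so the counts below describe the set and do not test it as a whole. Leaving out SEMA3B, which was chosen for its direction, the other 7 had positive log2 fold changes, as 46.8% of all genes tested did, and a median of 0.25 against -0.03 over all genes. For SEMA3C the sign turned to -0.07 and for PLXNC1 to -0.02 with limma on log2(RPKM + 1). Of the 7, 0 passed edgeR's test without the block, where 0.0% of all genes passed; 1 of them had an unadjusted p under 0.05, against 2.15% of all genes. DESeq2 called 0 of them (0.0191% of all genes), and limma on log2(RPKM + 1) called 0 of them and 0 of all 10469 genes. With the replicate block 0 of these 7 passed, against 1.62% of all genes, and 2 of them, NRP1 and PLXNB2, had an unadjusted p under 0.05, as 9.79% of all genes did with the block. DESeq2 with the block called 0 of the 7, against 0.544% of all genes. Both CDH3-AS1 siRNA libraries were above both controls for 3 of the 7 (PLXNB2, NRP1 and PLXNA1; 4 with TMM scaling, which adds NRP2), where 11.2% of all genes were (13.3% with TMM scaling). No member had both below, as 16.1% of all genes did. After TMM scaling 6 of the 7, all but SEMA3C, were higher in both batches, against 26.5% of all genes, and 27.8% were lower in both; for PLXNC1 this direction turned without the scaling. An exact permutation test of 2 libraries against 2 cannot give a two-sided p below 0.333.

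The batches were compared with the siRNA as a covariate, a contrast that the rule for choosing the genes did not use. Earlier results of these data were known when the genes were chosen. SEMA6A was the 1 gene of the 8 to pass, with a log2 difference of 1.05 (SE 0.25) between batch 2 and batch 1 (adjusted p = 0.000528 by edgeR). Its level in batch 2 was 1.84-fold that in batch 1 with the control siRNA and 2.25-fold with CDH3-AS1 siRNA. Of all genes 15.8% were called between the batches, 9.52% as higher and 6.3% as lower in batch 2, so 1 of 8 is no more than the background. On log2(RPKM + 1) limma did not make the call (adjusted p = 0.0890). With the batch as the only term, which called 5.14% of all genes, SEMA6A passed (adjusted p = 0.0400), and with 1 library left out as well it was lost without control siRNA replicate 1 (adjusted p = 0.147), control siRNA replicate 2 (0.163) or CDH3-AS1 siRNA replicate 2 (0.235).

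PLXNC1 was the other gene with both batch 2 libraries above both of batch 1, so that 2 of 8 were, against 27.2% of all genes; 1, NRP2, had both below, against 27.0%. It stood 1.50-fold higher in batch 2 with the control siRNA and 1.52-fold with CDH3-AS1 siRNA, a log2 difference of 0.62 (SE 0.24) that missed the threshold (adjusted p = 0.0619). It passed with reads of all transcript regions (0.71, adjusted p = 0.0314) and among genes with at least 50 reads in every library (0.67, adjusted p = 0.0343). For PLXNB2 the batch difference was 0.04 (SE 0.23), for PLXNA1 0.04 (SE 0.25) and for SEMA3B 0.03 (SE 0.29), none of which passed (adjusted p = 0.937, 0.941 and 0.967). NRP1 had -0.51 (SE 0.30, adjusted p = 0.270), SEMA3C -0.09 (SE 0.29, adjusted p = 0.889) and NRP2 -0.19 (SE 0.24, adjusted p = 0.660). What differed between the batches besides their number is not given in the sources used here.

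**Figure D3:**
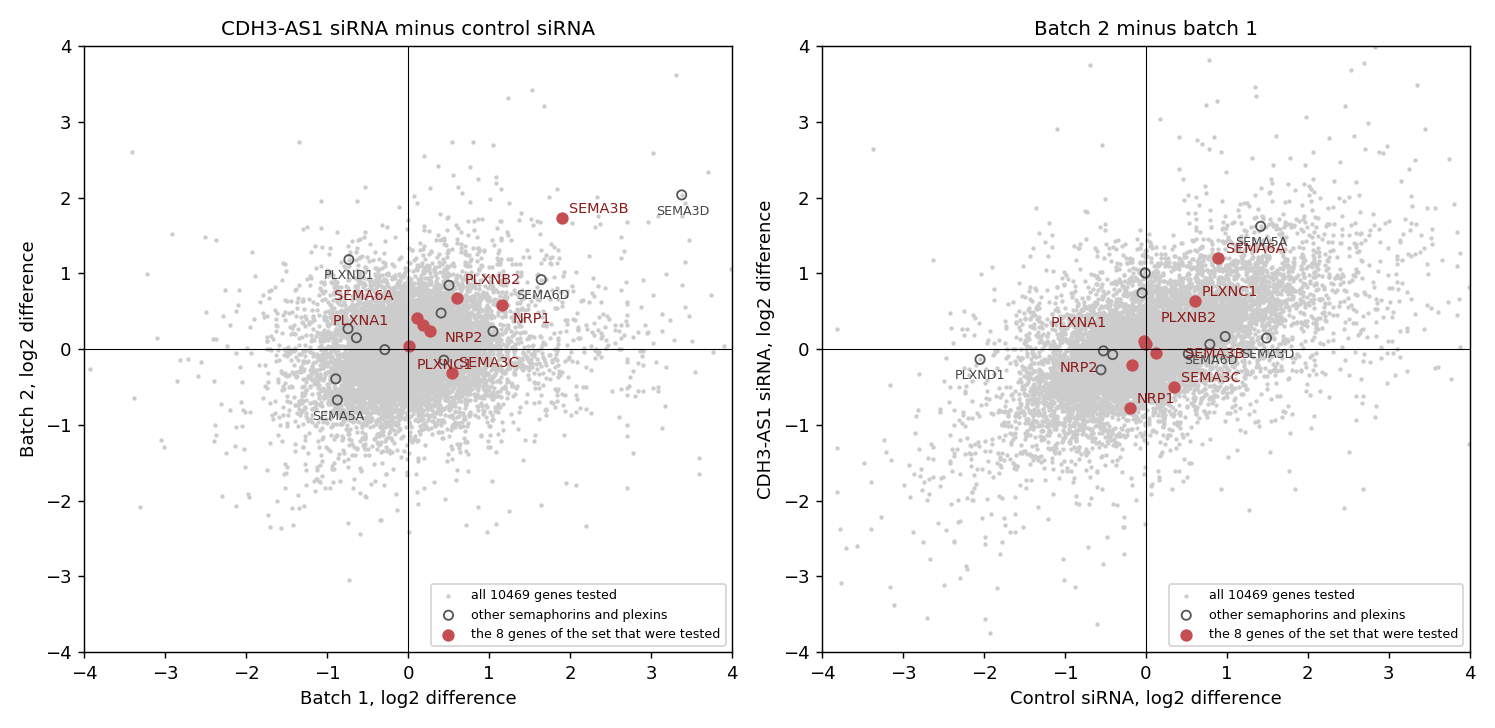
Left, log2 difference between CDH3-AS1 and control siRNA in batch 1 (x) and batch 2 (y); right, log2 difference between batch 2 and batch 1 with the control siRNA (x) and with CDH3-AS1 siRNA (y). Grey points are all 10469 genes tested, red points the 8 genes of the set and open circles other semaphorins and plexins; values are TMM-scaled, with a prior count of 2, and points beyond the axes are not drawn. SEMA3B lies at 1.90 and 1.73 on the left and near 0 on the right, and SEMA6A at 0.11 and 0.41 on the left and at 0.90 and 1.20 on the right.

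Footprints upstream of the coding sequence were a large share of reads for PLXNC1, NRP2 and SEMA6A and a small one for PLXNB2. Such reads come from ribosomes on the 5′ UTR, where short upstream reading frames can be translated. The 5′ UTR took 14.0% of all PLXNC1 reads over the 4 libraries, 13.1% of those of NRP2 and 13.0% of those of SEMA6A, which placed these genes between the 81.9th and 83.5th percentile of the genes tested. These pooled shares mix libraries that differ: PLXNC1 ran from 6.57% to 22.1%, NRP2 from 8.34% to 17.6% and SEMA6A from 8.21% to 16.1%, and the share over all genes from 3.81% to 7.09%. For PLXNB2 the pooled share was 1.22%, and the median of the genes tested was 3.02%. For PLXNB2, SEMA3B and SEMA3C the tables put 97.9%, 98.4% and 100% of the 5′ UTR reads on a transcript that was given 0 of the gene's coding reads, so for these 3 genes the share sets reads of different annotated transcripts against each other.

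In SEMA6A the share was lower after CDH3-AS1 siRNA in both batches. It was 15.3% (95% Clopper-Pearson interval 11.6 to 19.6) with the control and 8.21% (6.65 to 10.0) with CDH3-AS1 siRNA in batch 1, and 16.1% (14.5 to 17.9) and 11.6% (9.71 to 13.7) in batch 2. The intervals did not overlap in either batch, though they cover counting error only. The share over all genes went from 5.98% to 3.81% in batch 1 and the other way, from 5.08% to 7.09%, in batch 2. How many of the genes tested were lower in both batches, or had intervals apart, was not analysed. A lower share is therefore not shown to be particular to SEMA6A, and SEMA3B, given below, was lower in both batches as well. PLXNB2 was also lower in both batches, from 3.21% (2.04 to 4.77) to 0.921% (0.631 to 1.30) and from 1.37% (0.913 to 1.98) to 0.759% (0.380 to 1.35), with intervals that overlapped in batch 2. SEMA3C had 3.31% (0.908 to 8.25) and 1.50% (0.651 to 2.94) in batch 1 and 4.87% (3.04 to 7.35) and 3.85% (1.42 to 8.18) in batch 2, control first, with overlapping intervals. NRP2 had 12.9% (10.4 to 15.7) and 8.34% (7.31 to 9.48) in batch 1, which did not overlap, and 17.2% (15.5 to 19.0) and 17.6% (15.3 to 20.1) in batch 2, which did.

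PLXNC1 moved in the direction of its libraries. Its share was 17.4% (14.2 to 21.1) with the control and 6.57% (5.36 to 7.95) with CDH3-AS1 siRNA in batch 1, then 14.3% (12.8 to 15.8) and 22.1% (19.7 to 24.6) in batch 2. Per length, its 5′ UTR of 395 bases held 2.55 times and 2.00 times the density of its coding sequence in the controls, and 0.846 times and 3.39 times in the CDH3-AS1 siRNA libraries. The upstream stretch was thus denser than the coding sequence in 3 of 4 libraries. The same held for the 94-base 5′ UTR of SEMA3B, at 1.48 and 2.69 times in the controls and 0.927 and 1.69 times after CDH3-AS1 siRNA, though on few reads, and for PLXNA1 in batch 2 alone, at 1.54 and 2.13 times. A share also depends on the lengths of the 5′ UTR and the coding sequence. Per length, the 791-base 5′ UTR of NRP2 held 0.327 to 0.763 times its coding density, below it in every library. For SEMA6A (677 bases) this was 0.420 to 0.888 times. PLXNB2 (167 bases) was at 1.15 times in control siRNA replicate 1 and at 0.255 to 0.447 times in the others. For SEMA3B and PLXNB2 these densities, like the shares, set reads of different annotated transcripts against each other. PLXNA1 differed by batch: its 5′ UTR share was 2.16% (0.873 to 4.40) and 2.51% (1.70 to 3.57) in batch 1 and 7.18% (5.62 to 9.01) and 9.16% (6.85 to 11.9) in batch 2, control first. For SEMA3B the shares were 5.77% (1.21 to 15.9) and 3.84% (2.50 to 5.62) in batch 1 and 10.0% (6.04 to 15.3) and 6.42% (3.78 to 10.1) in batch 2, with intervals that overlapped between the siRNAs. So did those of NRP1, at 6.58% (2.17 to 14.7) and 5.10% (3.44 to 7.24) in batch 1 and 6.03% (3.15 to 10.3) and 10.7% (6.12 to 17.1) in batch 2. With 2 libraries per siRNA, no exact permutation test of these shares between siRNAs can reach the threshold.

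**Figure D4:**
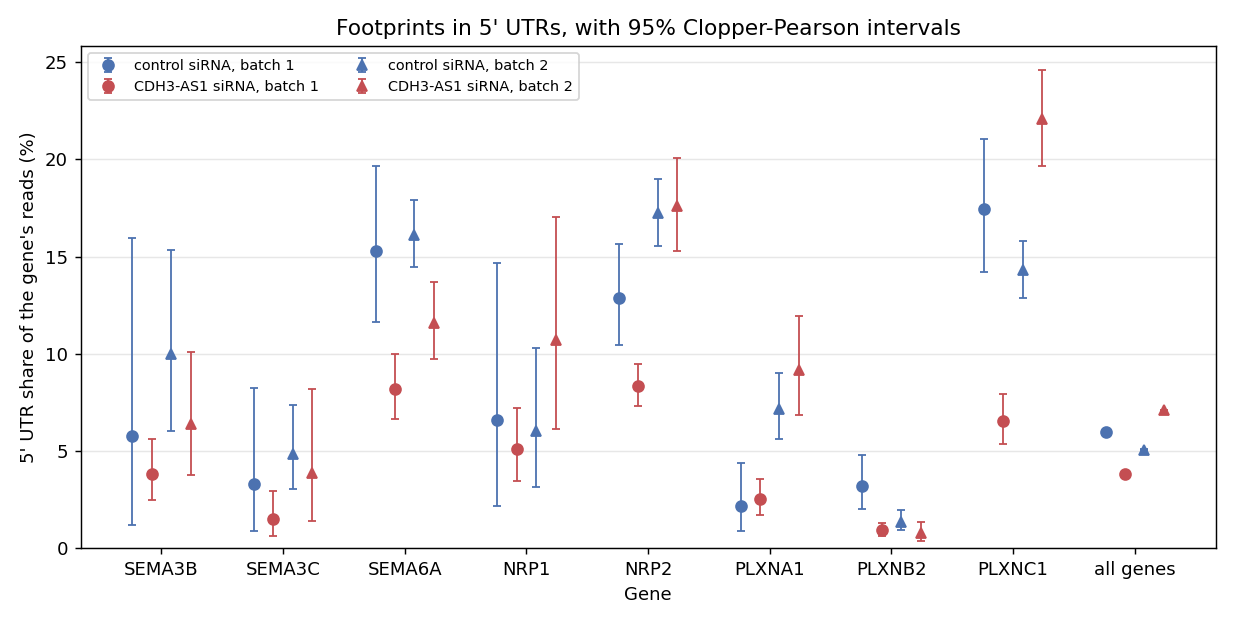
Share of each gene's reads that lie in the 5′ UTR, in percent, per library, with 95% Clopper-Pearson intervals (blue control siRNA, red CDH3-AS1 siRNA, circles batch 1, triangles batch 2), beside the share over all genes. SEMA6A, SEMA3B, SEMA3C and PLXNB2 are lower in red than in blue in both batches, PLXNC1 reaches 22.1% in 1 library and PLXNA1 is higher in both batch 2 libraries.

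The rest of the family was read from a list of all semaphorins, plexins and neuropilins. Of 15 other semaphorins 7 were tested. They include SEMA3D, which passed the filter on low counts only through the libraries where it is high and is described under other observations. With the block 1 of the 7 was called higher and 0 lower after CDH3-AS1 siRNA. Of all genes 0.927% were called higher and 0.697% lower. The gene called was SEMA6D, a transmembrane semaphorin that binds PLXNA1, with 40.2 and 68.9 CPM in the controls and 124 and 126 CPM after CDH3-AS1 siRNA. Its CDH3-AS1 siRNA libraries agreed closely while its controls differed, with ratios of 3.08-fold in batch 1 and 1.83-fold in batch 2. The log2 fold change was 1.22 (SE 0.37) with an adjusted p of 1.00 by edgeR without the block, and 1.26 (SE 0.28) with an adjusted p of 0.00139 with it; DESeq2 with the block gave an adjusted p of 0.0358.

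SEMA4C, a membrane semaphorin that binds PLXNB2, had 158 and 155 CPM in the controls and 206 and 209 CPM after CDH3-AS1 siRNA, and so repeated closely within each siRNA. Its ratios were 1.30-fold and 1.34-fold and its log2 fold change 0.44 (SE 0.31, adjusted p = 1.00 by edgeR, 0.592 with the block). SEMA5A, which binds PLXNB3, had 206 and 544 CPM in the controls and 109 and 329 CPM after CDH3-AS1 siRNA. It was lower in both batches, at 0.532-fold and 0.606-fold, but its batches lay further apart than its siRNAs. Its log2 fold change was -0.73 (SE 0.66, adjusted p = 1.00 by edgeR; -0.77, SE 0.24, adjusted p = 0.0719 with the block). Its batch difference of 1.52 (SE 0.25) passed the test (adjusted p = 4.66e-08), in the direction of that of SEMA6A.

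Among the 6 other plexins 5 were tested and 0 passed with or without the block by edgeR, or by DESeq2 with the block; an unadjusted p under 0.05 was reached by 0 of them without the block, against 2.15% of all genes, and by 1, PLXNB1, with it, against 9.79%. PLXNB1, the main SEMA4D receptor, had 132 and 97.9 CPM in the controls and 183 and 170 CPM after CDH3-AS1 siRNA, with no overlap and ratios of 1.39-fold and 1.73-fold (log2 fold change 0.66, SE 0.32, adjusted p = 1.00 by edgeR, 0.226 with the block). PLXNA3 had ratios of 2.05-fold and 1.14-fold, PLXNB3 of 0.799-fold and 0.960-fold, and PLXNA2 of 0.504-fold and 0.719-fold. PLXND1 went opposite ways, at 0.580-fold in batch 1 and 2.30-fold in batch 2. SEMA4B, SEMA4F and SEMA6B also had opposite directions in the batches, with log2 fold changes of 0.11, -0.20 and -0.18.

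Of 18 further receptors and shared ligands 11 were tested, of 7 processing enzymes 6, and of 37 intracellular effectors 31. With the block 1 of these 48 genes was called between the siRNAs, near the 1.62% of all genes called. It was RAC1, a small GTPase that plexins engage. It had 238 and 73.6 CPM in the controls and 92.9 and 44.4 CPM after CDH3-AS1 siRNA, with ratios of 0.391-fold and 0.604-fold, and its groups overlapped. The log2 fold change was -1.12 (SE 0.61, adjusted p = 1.00 by edgeR), and -1.01 (SE 0.27, adjusted p = 0.0173) with the block, a call that DESeq2 with the block did not make (adjusted p = 0.210). RAC1 has close paralogs with which it can share reads. L1CAM, an adhesion protein that partners NRP1, had 583 and 1031 CPM in the controls and 942 and 1340 CPM after CDH3-AS1 siRNA (log2 fold change 0.54, SE 0.42, adjusted p = 1.00 by edgeR, 0.211 with the block). The sheddase ADAM17 had ratios of 1.36-fold and 1.74-fold and the convertase PCSK7 of 1.54-fold and 1.34-fold, while the kinase FES had 0.553-fold and 0.672-fold and the receptor kinase ERBB2 1.14-fold and 1.19-fold; none of these 4 passed.

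Between the batches 12 of the 48 genes were called, 8 higher and 4 lower in batch 2, where 15.8% of all genes were called, 9.52% higher and 6.3% lower. MET, the receptor kinase that class B plexins associate with, was higher by 1.14 (log2, SE 0.23, adjusted p = 3.48e-05 by edgeR), and the integrin subunit ITGB1 by 1.40 (SE 0.23, adjusted p = 4.61e-08). L1CAM, its relative CHL1, ITGA1, the protease ADAM10, the convertase PCSK6 and RAP1A, a GTPase that the plexin GAP domain acts on, were higher too, by 0.69 to 1.55. RAC1 (-1.36), the cofilin phosphatase SSH1 (-1.02), MICAL3 (-0.96) and DPYSL4 (-0.77) were lower. The 2 neuropilins and the 8 plexins tested were not among the genes called between the batches.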

How the data were processed

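Ribosome footprints were measured in 4 libraries of Hermes 4B melanocytes, 2 per siRNA. Per the file headers, the deposited tables give read counts per transcript for the 5′ UTR, coding sequence and 3′ UTR, with lengths in bases, and RPKM values that the authors scaled to the library's total over all regions (checked on the values). The submitters' processing notes name hg38 and DESeq2; for the aligner, counting tool, annotation, read filters and strand setting the sources used here give no name. Values are ribosome density, since matched RNA-seq was not used here.

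Coding-sequence counts were summed by gene name, filtered with filterByExpr (minimum count 10, total 15) scaled by TMM and tested over 10469 genes by the quasi-likelihood method of edgeR 4.0.16 (R 4.3.3; prior count of 2). P-values were adjusted by Benjamini-Hochberg and called below 0.05. The main siRNA model had no covariate, and the batch model had the siRNA. Standard errors are the log2 fold change over the square root of F. The labels give same-numbered libraries a shared batch, and such libraries deviated together (r = 0.58 across genes, as deviations from each siRNA's mean); the replicate block is therefore given beside the results. Replicates differed by more than sampling noise (chi-square per degree of freedom 40.8 and 36.3). Scripts were tested on simulated data. Intervals are 95% Clopper-Pearson or, for ratios, exact conditional binomial. DESeq2 1.42.0 and limma 3.58.1 gave alternatives.

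The members and the gene lists were chosen with earlier results of these data known. All members, every other tested semaphorin, plexin and neuropilin, and from the other lists the genes past the threshold in a fit and the 2 per list with the largest same-direction change (at least 30 reads per library) are named. Coordinates are from NCBI's gene table of GRCh38.p14, which all 10 members matched.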

Additional observations from a re-analysis of the deposited data

How the results depend on the processing

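In the siRNA comparison 0 genes were called without the replicate block, 170 with it (97 higher), 57 by DESeq2 with the replicate block (added after seeing the data), 2 by DESeq2 without it and 52 with no filter on low counts. Leaving out 1 library gave 0 to 73 genes, the 73 without control siRNA replicate 2, where the library with muscle transcripts is the only control. The count of members called other than SEMA3B was 0 under all these settings, those with the block included. The log2 fold change of SEMA3B, given without a test, stayed between 1.69 and 1.84, and between 1.78 and 1.89 without 1 library; with 49 reads in control siRNA replicate 1 it was not in the set with at least 50 reads. SEMA3C was -0.0685 and PLXNC1 -0.0150 with limma on log2(RPKM + 1), and -0.0715 and -0.0150 with log2(RPKM + 0.1). Without 1 library SEMA3C ran from -0.15 to 0.36, PLXNC1 from -0.32 to 0.37, SEMA6A from -0.41 to 0.84 and NRP2 from 0.15 to 0.37. Fits on 3 libraries mix batch with siRNA, and the cause of these ranges was not tested.

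Between the batches 1657 genes were called, 538 with the batch alone, 694 by DESeq2, 766 with limma on log2(RPKM + 1), 153 with log2(RPKM + 0.1) and 29 to 1280 without 1 library and with the batch alone. Members called went from 1 to 0 with either limma fit, and to 2 with all regions and with at least 50 reads. All regions gave 1578 of 10716 genes called, beside 2 of 8 members. At least 50 reads in every library gave 1177 of 5786 genes called, beside 2 of 7 members. SEMA3B was -0.0830 with the batch alone and -0.0908 with the highest transcript, and PLXNB2 was -0.0141 with all regions. Without 1 library the batch value of SEMA3B ran from -1.15 to 1.20, of PLXNA1 from -0.11 to 0.18, of PLXNB2 from -0.32 to 0.38, of SEMA3C from -0.36 to 0.21, of NRP1 from -1.08 to 0.11 and of NRP2 from -0.35 to -0.04. The cause of these changes was not tested beyond the fewer libraries or genes that the settings leave. SEMA3A and SEMA4D had 0 reads in control siRNA replicate 1, the shallowest library with 2034854 reads. SEMA4D also had 0 reads in control siRNA replicate 2, which held 5994485.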

Other observations

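SEMA3D, a secreted class 3 semaphorin outside the 10 genes, was scarce, with more reads after CDH3-AS1 siRNA. It had 0 and 5 reads in the controls and 29 and 13 reads after CDH3-AS1 siRNA, or 0 and 0.888 CPM against 4.57 and 4.98 CPM. The level was at least 2.81-fold above the control's floor of 3 reads in batch 1, and the ratio was 5.61 in batch 2 (95% interval 1.88 to 20.1, counting error only). It passed the filter on low counts only through the libraries where it is high, so no test is given for it. The ratio and its interval describe these reads and do not test a difference between the siRNAs. SEMA3F, another class 3 semaphorin, had 1 and 5 reads in the controls and 8 and 6 after CDH3-AS1 siRNA, and was not tested.

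Footprints in 3′ UTRs took the largest share over all genes in control siRNA replicate 1, and some genes of the set followed this. SEMA3C had 9.09% (95% Clopper-Pearson interval 4.63 to 15.7) of its reads in the 3′ UTR there, on 11 reads, against 0.464% to 1.92% in the other libraries. PLXNA1 had 8.64% (5.82 to 12.2) there and 4.69% (3.56 to 6.05) in CDH3-AS1 siRNA replicate 1, against 2.22% and 1.68% in batch 2. PLXNB2 had 4.88% (3.42 to 6.72) there and 0.881% to 1.64% elsewhere. SEMA6A had 3.60% (1.88 to 6.21) there and 0.875% to 2.37% elsewhere, and PLXNC1 1.00% (0.326 to 2.32) there and 0.360% to 0.871% elsewhere. NRP2 did not follow, with 1.05% there and 1.55% in CDH3-AS1 siRNA replicate 1. SEMA3B and NRP1 had 0 such reads there among 52 and 76, which allows shares of up to 6.85% and 4.74% (Clopper-Pearson). These limits lie above the share over all genes, so neither gene can be placed. Over all genes the 3′ UTR took 3.48% of reads in control siRNA replicate 1 and 1.03% to 2.28% in the others.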
